A study of Mus musculus with 6 samples.

Results

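Integrins and laminins, the cell surface receptors for the extracellular matrix and one of their main ligand families, were examined in RNA of the left ventricle from mice with myocardial infarction (MI). Members were all genes whose symbol begins with Itga or Itgb followed by 1 or 2 further characters, except Itgbl1, and all genes named Lama, Lamb or Lamc with 1 digit. The rule found 39 of 34745 listed genes, 28 integrin and 11 laminin entries, and the symbol Itgam was carried by 2 identifiers. The series holds 3 libraries labelled MI-NS and 3 labelled MI-DAPA, which stands for MI and dapagliflozin, a drug that blocks the kidney glucose transporter SGLT2. All 6 libraries come from infarcted hearts, and no uninjured heart is among them. NS is not spelled out, and strain, age, sex, dose and time after MI are not given in the labels. The question behind the comparison is the effect of dapagliflozin on the infarcted, failing heart.

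An integrin is a pair of 1 alpha and 1 beta subunit that spans the cell membrane, holds a matrix protein outside and ties it through talin and kindlin to actin inside. Laminins are trimers of an alpha, a beta and a gamma chain that form the sheet of the basement membrane around each heart muscle cell and under each vessel wall. The alpha chain sets which receptor a laminin binds: α2 is the main chain around muscle cells, and α4 and α5 are the chains of vessel walls. In heart muscle α7β1 is the adult laminin receptor, and leukocytes carry β2 integrins that bind counter-receptors on endothelium.

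Total counts were 17207974 to 20563188 per library, and a count of 3 corresponded to 0.133 to 0.178 CPM, the normalised read count used throughout (counts scaled to a common library size), for counting error only. Of the members, 34 had enough counts to be tested and 5 had not. Heart muscle markers were present as the tissue label says: all 12 listed genes were tested, with Myh6, the adult alpha myosin heavy chain, at 19200 CPM in MI-NS and 25800 CPM in MI-DAPA. Levels of bulk tissue cannot tell apart fewer cells of a type and less RNA per cell. The summed level of 12 cardiomyocyte markers was 58700 to 60200 CPM in MI-NS and 73800 to 78100 CPM in MI-DAPA, with 7 genes higher, 0 lower and a median log2 change of 0.32. That of 12 fibroblast markers was 3540 to 4410 CPM against 2210 to 2580 CPM, with 8 lower, 0 higher and a median of -0.61. Of 12 endothelial markers 5 were lower and 0 higher (median -0.30), of 11 smooth muscle and pericyte markers 4 were lower and 1 higher (median -0.23), and of 12 leukocyte and macrophage markers 4 were lower and 0 higher (median -0.46). Of all tested genes 7.83% were called lower and 8.69% higher by the same test, which is given below. The part these cell types have in the changes of the members was not tested.

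Few members changed. At a Benjamini-Hochberg adjusted p under 0.05 over all tested genes (edgeR, quasi-likelihood F test), 4 of the 34 tested members were lower in MI-DAPA (Itgb4, Itgb5, Lama3 and Lama4) and 1 was higher (Itga7). Over all 13940 tested genes the shares were 7.83% lower and 8.69% higher, and counts as small as 4 and 1 do not set the members apart from genes at large. The remaining 29 tested members were not called. Among 24 tested integrin entries 2 were lower and 1 higher, with a median log2 change of -0.32 and 19 of 24 values below 0. Among 10 tested laminin chains 2 were lower and 0 higher, with a median of 0.09 and 3 values below 0. The median over all tested genes was -0.02, with 7289 of 13940 values below 0. Every MI-DAPA library lay below every MI-NS library in 8 members and above in 4, against 18.5% and 18.4% of all tested genes. An unadjusted p under 0.05 was found for 9 integrins and 4 laminin chains, where 32.3% of all tested genes had one, so this count does not set the members apart either. The calls rest on few libraries. When replicate 3 of either group or replicate 1 of MI-DAPA was left out, Lama3 was the only called member. Calls over all genes became fewer as well, from 1092 lower and 1212 higher with all libraries. They were 542 and 668 without MI-NS replicate 3, 477 and 683 without MI-DAPA replicate 3, and 457 and 541 without MI-DAPA replicate 1. Without replicate 3 of both groups no member was called, with 16 lower and 8 higher calls over all genes.

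**Figure D1:**
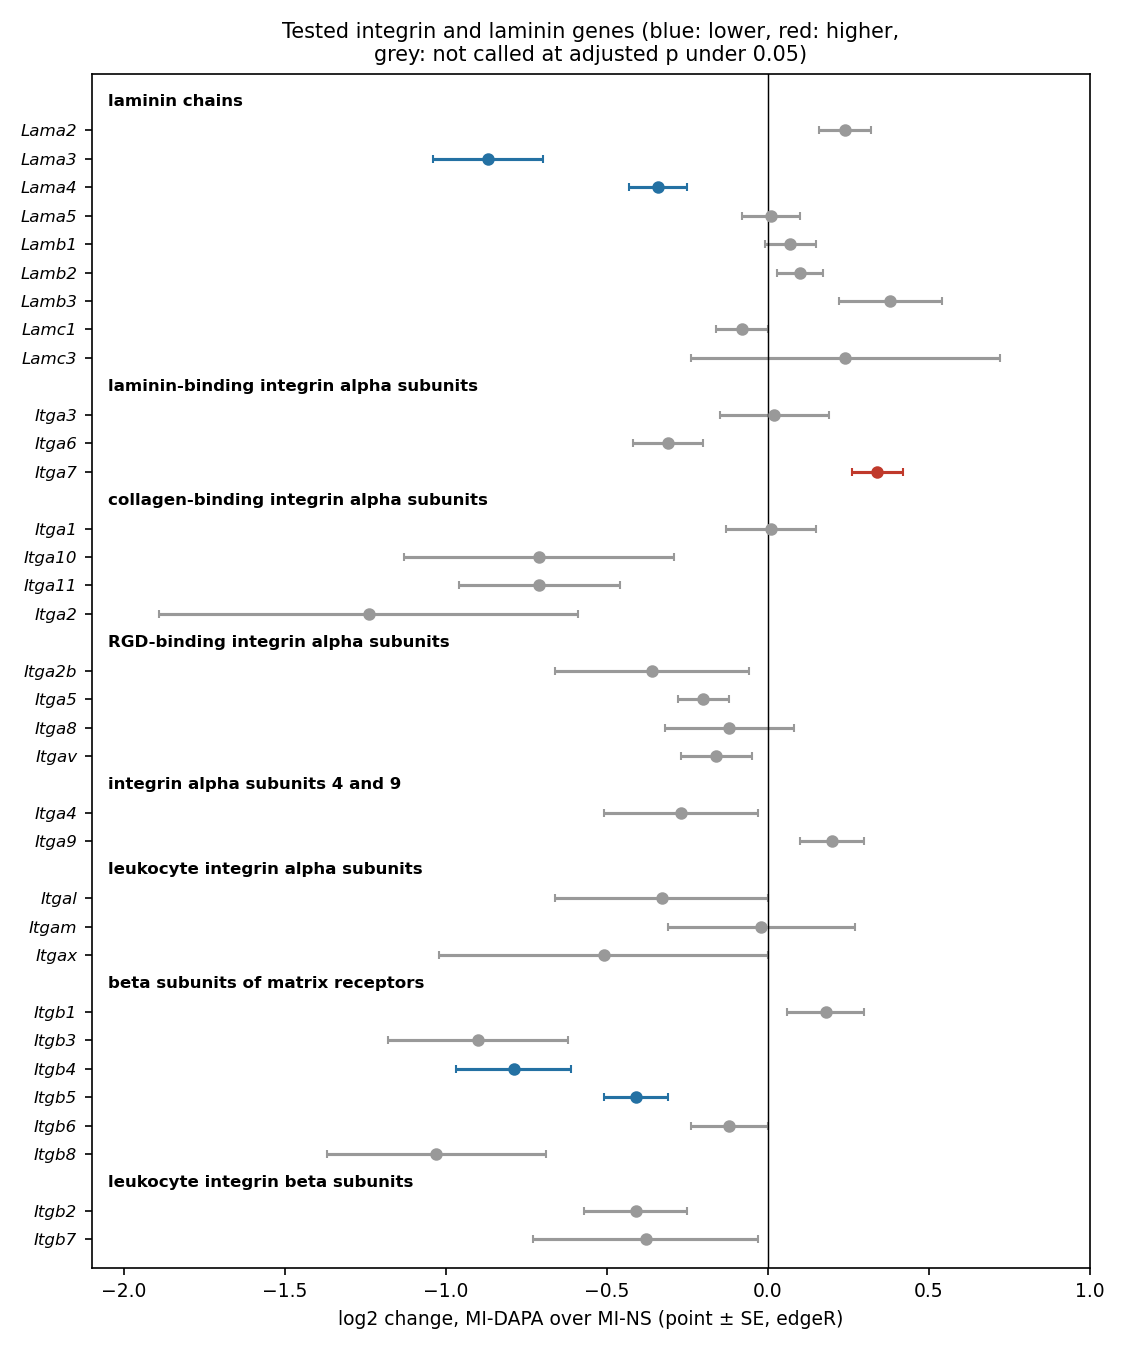
Log2 change of tested integrin and laminin genes (all but 1 of the 34), MI-DAPA over MI-NS, with its standard error from edgeR, grouped by the ligand or cell type of the subunit. Lama3, Lama4, Itgb4 and Itgb5 (blue) were called lower and Itga7 (red) higher, and the widest errors belong to genes with few counts such as Itga2.

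Among the laminin alpha chains Lama4 and Lama3 fell, while Lama2 and Lama5 did not pass the test. Lama4, the α4 chain of vessel basement membranes (ENSMUSG00000019846, chromosome 10, 38965515 to 39110188, mm10), had 103, 101 and 101 CPM in MI-NS replicates 1 to 3 and 73.6, 90.3 and 76.9 CPM in MI-DAPA. The MI-NS libraries were nearly equal, and all MI-DAPA libraries lay below them. Lama4 fell 1.27-fold, from 102 ± 0.897 to 80.3 ± 8.83 CPM (SD, n = 3), a log2 change of -0.34 ± 0.09 (SE, edgeR adjusted p = 0.0329). Its call was kept only without MI-DAPA replicate 2 when single libraries were left out, and otherwise it had log2 changes of -0.28 to -0.34 with edgeR adjusted p of 0.0725 to 0.127.

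Lama3, the α3 chain known from epithelial basement membranes (ENSMUSG00000024421, chromosome 18, 12333819 to 12583013), was a low-level gene. It had 4.92, 4.56 and 5.58 CPM in MI-NS and 2.78, 2.90 and 2.53 CPM in MI-DAPA, from 111, 93 and 94 against 56, 59 and 44 counts. The groups did not overlap. It fell 1.83-fold, with a log2 change of -0.87 ± 0.17 (edgeR adjusted p = 0.012), and was the one member whose call held with each of the 6 libraries left out. Lamb3, the β3 chain that joins α3 in its trimer, was not called, with a log2 change of 0.38 ± 0.16 (edgeR adjusted p = 0.153). Counts of Lamb3 (ENSMUSG00000026639, chromosome 1, 193207699 to 193343878) may hold reads of other genes. Its interval overlaps Hsd11b1 by 42442 bases and G0s2 by 1057 bases on the opposite strand. It also overlaps Gm37691 by 2573 bases on the same strand, with a mean count of 85.8 against 260.3 for Lamb3. The use of strand in counting is not stated in the sources used. Of 8 mesothelial and epicardial markers 3 were tested. Krt18 was lower (log2 change -1.96 ± 0.38, edgeR adjusted p = 0.0124), while Upk3b and Wt1 were not called (adjusted p = 0.129 and 0.412) and their groups overlapped. The summed level of the 8 markers was 9.12 to 20.2 CPM in MI-NS and 4.87 to 6.60 CPM in MI-DAPA, and their part in the fall of Lama3 was not tested.

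Lama2, the α2 chain of muscle basement membranes (ENSMUSG00000019899, chromosome 10, 26980036 to 27619758), had 117, 102 and 109 CPM in MI-NS and 132, 132 and 125 CPM in MI-DAPA. All MI-DAPA libraries lay above all MI-NS libraries. The log2 change of 0.24 ± 0.08 did not pass (edgeR adjusted p = 0.0588), though it did with DESeq2 (adjusted p = 0.0384), and it was 0.14 with library totals (adjusted p = 0.431). Lama5, the α5 chain of mature vessels, had 179, 162 and 153 CPM in MI-NS and 181, 161 and 156 CPM in MI-DAPA, and the groups overlapped throughout (log2 change 0.01 ± 0.09, edgeR adjusted p = 0.969). Lama1, the α1 chain of early embryos, had 0 or 1 count in each library and was not tested.

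The beta and gamma chains that these trimers share did not pass. Lamb2, the β2 chain, which had the highest level of the laminin chains in RPKM (CPM divided by exon length in kilobases), was at 57.1 ± 1.41 RPKM in MI-NS and 61.2 ± 4.13 RPKM in MI-DAPA (SD, n = 3). Lamc1, the γ1 chain of nearly all laminins, was at 30.9 ± 2.86 and 29.2 ± 0.99 RPKM. All MI-DAPA libraries of Lamb2 lay above its MI-NS libraries, and those of Lamc1 overlapped. Their log2 changes were 0.10 ± 0.07 and -0.08 ± 0.08. Lamb1, the β1 chain, had a log2 change of 0.07 ± 0.08, and Lamc3, a rare gamma chain with 6 to 20 counts per library, of 0.24 ± 0.48. The edgeR adjusted p of these chains ranged from 0.386 for Lamb2 to 0.771 for Lamc3.

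In shares of all laminin alpha reads per kilobase, which do not depend on the scaling between libraries, Lama5 held the largest part in every library. Lama4 had 26.7, 28.6 and 28.8% in MI-NS against 20.1, 25 and 22.8% in MI-DAPA. Lama2 had 22.5, 21.3 and 23.0% in MI-NS against 26.6, 27.0 and 27.3% in MI-DAPA. So per kilobase Lama4 stood above Lama2 in each MI-NS library and below it in each MI-DAPA library. That order depends on the annotated exon lengths used, 12068 bases for Lama4 and 16338 for Lama2. On counts Lama4 lay below Lama2 in every library, and the ratio of Lama4 to Lama2 was lower in MI-DAPA. Lama5 had 48.1 ± 1.58% and 49.5 ± 2.70% (SD, n = 3), a difference within the spread. Lamb2 made up 83.0 ± 0.0912% and 82.7 ± 1.46% of the beta chain reads per kilobase, and Lamc1 96.5 ± 0.283% and 96.0 ± 0.594% of the gamma chain reads.

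**Figure D2:**
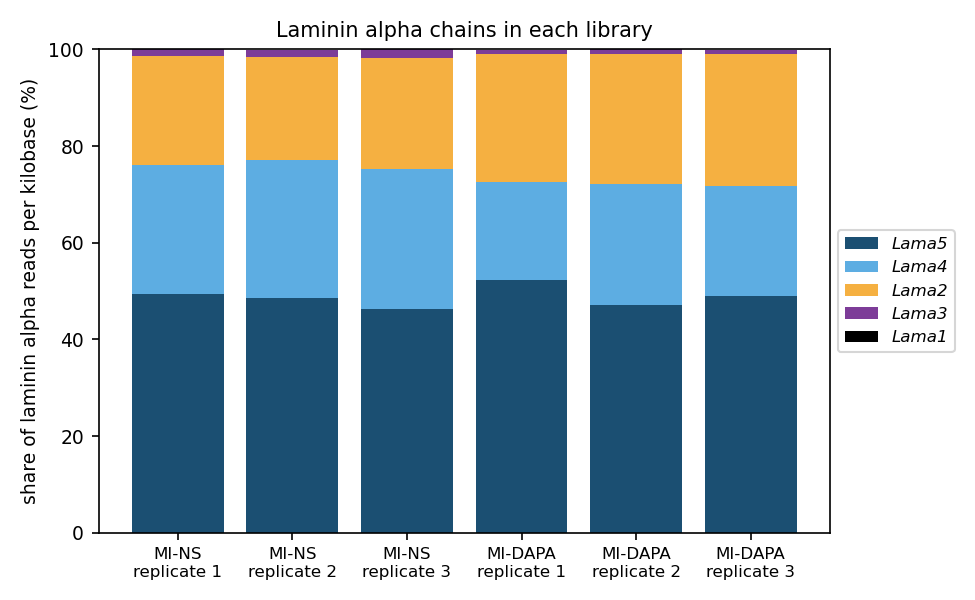
Share of each alpha chain in the laminin alpha reads per kilobase of exon, in percent, for each of the 6 libraries as stacked bars that sum to 100%. The Lama4 part is larger than the Lama2 part in the MI-NS libraries (28.0% against 22.3% on average) and smaller in the MI-DAPA libraries (22.7% against 27.0%). Which part is larger depends on the exon lengths used.

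Of the laminin-binding integrin subunits, Itga7 rose. Itga7, the α7 subunit of muscle cells (ENSMUSG00000025348, chromosome 10, 128933813 to 128958277), had 112, 108 and 109 CPM in MI-NS and 149, 124 and 142 CPM in MI-DAPA. All MI-DAPA libraries lay above all MI-NS libraries. It rose 1.26-fold, from 110 ± 2.33 to 138 ± 12.7 CPM (SD, n = 3), a log2 change of 0.34 ± 0.08 (edgeR adjusted p = 0.0271), beside a median of 0.32 for the cardiomyocyte markers. The call was lost with library totals as the only scaling (log2 change 0.23, adjusted p = 0.164), where the median of all genes was -0.12. It was lost as well when replicate 2 or 3 of MI-NS, or 1 or 3 of MI-DAPA, was left out, with log2 changes of 0.28 to 0.34 and adjusted p of 0.0563 to 0.0977.

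Itga6, the α6 subunit, which pairs with β1 or β4 and is found on endothelium and epithelium (ENSMUSG00000027111, chromosome 2, 71745616 to 71858416), went the other way without passing. It had 65.3, 71.7 and 65.5 CPM in MI-NS and 47.0, 63.2 and 53.2 CPM in MI-DAPA, with no overlap. Its log2 change was -0.31 ± 0.11 (edgeR adjusted p = 0.0925), and it passed only without MI-DAPA replicate 2 (-0.42, adjusted p = 0.0316) when single libraries were left out. With each of the other 5 left out it was -0.21 to -0.33, with edgeR adjusted p of 0.136 to 0.257. Itga3, the α3 subunit, overlapped between the groups (13.4 ± 2.60 and 13.5 ± 2.11 CPM, SD, n = 3). Itgb4, the β4 subunit that pairs with α6 alone (ENSMUSG00000020758, chromosome 11, 115974709 to 116008412), fell. It had 3.77, 3.58 and 3.92 CPM in MI-NS and 2.04, 2.22 and 2.24 CPM in MI-DAPA, from 85, 73 and 66 against 41, 45 and 39 counts. The groups did not overlap, at 39 to 85 counts per library. The fall was 1.73-fold, with a log2 change of -0.79 ± 0.18 (edgeR adjusted p = 0.0199). With replicate 3 of either group or replicate 1 of MI-DAPA left out, the adjusted p was 0.059 to 0.073.

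Itgb5, the β5 subunit, pairs with αv and binds vitronectin through the peptide motif RGD. Its promoter, from 250 bases before to 50 after the start, is shown because Itgb5 was the one called member of 5 that the RefSeq promoter table (GRCm38.p6) held among 24 matched members. The promoter of Itgb1, the common beta subunit, which was not called, is set beside it. Capitals mark matches, on either strand, to any of 7 motifs: AP-1 (TGANTCA), TEAD (GGAATG), SMAD (CAGACA), ETS and PU.1 (GAGGAAG), RUNX (TGTGGT), GC box (GGGCGG) and TATA box (TATAAA). Both lie on the plus strand, at chr16:33829415-33829714 and chr8:128685404-128685703.
Itgb5: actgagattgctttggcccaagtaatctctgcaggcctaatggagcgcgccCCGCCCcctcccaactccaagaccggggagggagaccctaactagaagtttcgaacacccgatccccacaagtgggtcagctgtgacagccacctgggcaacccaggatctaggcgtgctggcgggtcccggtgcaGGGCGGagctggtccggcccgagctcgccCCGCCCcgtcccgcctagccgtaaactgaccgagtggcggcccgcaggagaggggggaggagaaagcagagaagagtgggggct
Itgb1: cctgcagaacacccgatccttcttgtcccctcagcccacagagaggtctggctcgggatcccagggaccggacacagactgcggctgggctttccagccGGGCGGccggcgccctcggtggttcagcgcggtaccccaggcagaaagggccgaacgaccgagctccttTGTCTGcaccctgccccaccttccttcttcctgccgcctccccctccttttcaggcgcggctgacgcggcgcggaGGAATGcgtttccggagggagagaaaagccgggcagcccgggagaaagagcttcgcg
The Itgb5 window held 3 GC boxes and none of the other motifs. The Itgb1 window held 1 GC box, 1 SMAD match and 1 TEAD match, and none of the matches overlap. Among 32841 promoters of this length, 35.7% held a GC box, 21% a SMAD match and 14.7% a TEAD match. GC content was 65.7% in Itgb5 and 67.3% in Itgb1.

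Itgb5 (ENSMUSG00000022817, chromosome 16, 33829665 to 33949153) had 132, 108 and 138 CPM in MI-NS and 99.4, 88.6 and 96.5 CPM in MI-DAPA. Replicate 2 was the lowest in each group, and the groups did not overlap. Itgb5 fell 1.33-fold, from 126 ± 15.6 to 94.8 ± 5.59 CPM (SD, n = 3), a log2 change of -0.41 ± 0.10 (edgeR adjusted p = 0.0276). When single libraries were left out the call was kept only without MI-NS replicate 2, and otherwise had log2 changes of -0.34 to -0.44 with adjusted p of 0.0692 to 0.0901.

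**Figure D3:**
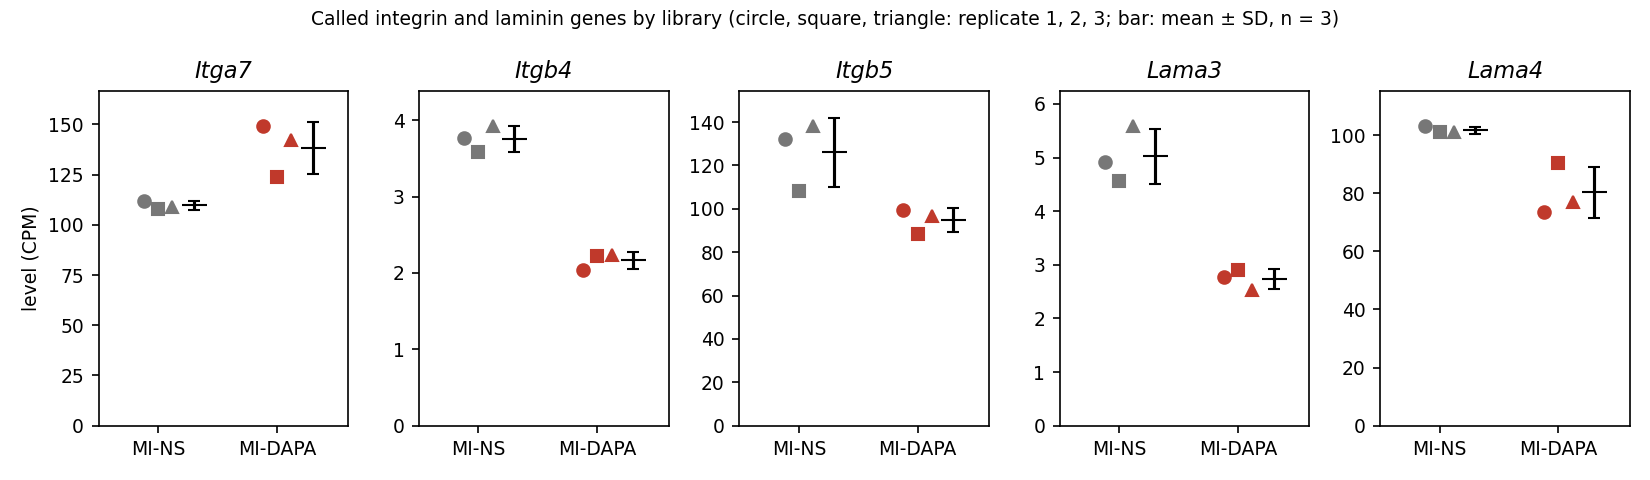
Levels of the 5 called members in CPM, scaled by TMM factors, in the 3 MI-NS (grey) and 3 MI-DAPA (red) libraries, with mean and SD beside the points. In each panel the groups do not overlap, with Itga7 higher in MI-DAPA (124 to 149 CPM against 108 to 112) and the other 4 genes lower.

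Itgb1 was the most abundant integrin subunit per length, at 70.1 ± 12.4 RPKM in MI-NS and 79.5 ± 3.76 RPKM in MI-DAPA (SD, n = 3), followed by Itgb5 at 35.5 ± 4.39 and 26.7 ± 1.57 RPKM. Its CPM were 327, 303 and 229 in MI-NS against 315, 342 and 316 in MI-DAPA. Replicate 3 of MI-NS stood below the other libraries, which overlapped. The log2 change of 0.18 ± 0.12 (edgeR adjusted p = 0.356) was 0.05 without that library. Among the beta reads per kilobase Itgb5 held 30.2, 27.6 and 38.2% in MI-NS against 25.6, 22.0 and 24.8% in MI-DAPA, and Itgb1 held 62.5 ± 6.22% and 71.9 ± 1.85% (SD, n = 3).

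The other beta partners of αv were lower in value and were not called. Itgb3, the β3 subunit of platelets, endothelium and smooth muscle, had 4.26, 5.64 and 4.93 CPM in MI-NS and 1.59, 3.50 and 2.87 CPM in MI-DAPA. The groups did not overlap, and MI-DAPA replicate 1 was the lowest. Its log2 change was -0.90 ± 0.28 (edgeR adjusted p = 0.0579), and it passed with DESeq2 (adjusted p = 0.034), without a filter on low counts (0.0394) and with library totals (0.044). When single libraries were left out Itgb3 passed only without MI-DAPA replicate 2 (-1.14, edgeR adjusted p = 0.0424) and was otherwise -0.63 to -0.99, with adjusted p of 0.0721 to 0.15. Itgb8, the β8 subunit, which with αv activates latent TGF-beta, had 3.73, 1.62 and 2.67 CPM in MI-NS and 1.04, 1.58 and 1.32 CPM in MI-DAPA (log2 change -1.03 ± 0.34, edgeR adjusted p = 0.0732). Its highest MI-DAPA library lay just under its lowest MI-NS library, and when single libraries were left out it passed only without MI-NS replicate 2 (-1.28, adjusted p = 0.0293). With the others left out Itgb8 was -0.69, without MI-NS replicate 1, to -1.17, with edgeR adjusted p of 0.1 to 0.222. Itgb6, the epithelial β6 subunit, overlapped (log2 change -0.12 ± 0.12). The platelet markers Pf4 and Ppbp, beside Itgb3 and Itga2b, had log2 changes of -0.21 ± 0.14 and 0.47 ± 0.41.

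The alpha subunits of RGD receptors were not called. Itga5, the α5 subunit of the fibronectin receptor, led all alpha subunits per length in MI-NS at 17.8 ± 0.796 RPKM and had 15.5 ± 0.968 RPKM in MI-DAPA (SD, n = 3). Its CPM were 84.7, 92.2 and 86.5 against 71.4, 77.6 and 80.8, with no overlap (log2 change -0.20 ± 0.08, edgeR adjusted p = 0.117). Itga7 was at 13.5 ± 0.288 and 17.1 ± 1.57 RPKM. Per length Itga5 was above Itga7 in each MI-NS library and below it in 2 of the 3 MI-DAPA libraries. That order depends on the exon lengths used, and on counts Itga5 lay below Itga7 in every library. Itgav, the αv subunit, had a log2 change of -0.16 ± 0.11, and Itga8, the α8 subunit of smooth muscle and fibroblasts, of -0.12 ± 0.20. Itga2b, the platelet subunit αIIb, had 19 to 41 counts per library and a log2 change of -0.36 ± 0.30. In these 3 genes the groups overlapped.

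Collagen-binding alpha subunits were not called either. Itga11, the α11 subunit of fibroblasts that binds fibrillar collagen, had 9.71, 5.30 and 8.02 CPM in MI-NS and 3.63, 5.32 and 5.17 CPM in MI-DAPA. The groups met at MI-NS replicate 2. The log2 change was -0.71 ± 0.25 (edgeR adjusted p = 0.0829), and it passed only without that library (-0.91, adjusted p = 0.0284) when single libraries were left out. With the others left out Itga11 was -0.49, without MI-NS replicate 1, to -0.80, with edgeR adjusted p of 0.113 to 0.232. Itga10, the α10 subunit known from cartilage, was at -0.71 ± 0.42 and Itga2, the α2 subunit of platelets and epithelium, at -1.24 ± 0.65 from 3 to 27 counts per library. Single libraries moved Itga2 from -0.72 without MI-NS replicate 1 to -2.22 without MI-DAPA replicate 2, and Itga10 from -0.35 without MI-DAPA replicate 1 to -1.25 without its replicate 2, with no call. Itga1, the α1 subunit of smooth muscle and vessels, was at 0.01 ± 0.14, and its interval holds Pelo on the same strand. Itga4 and Itga9, whose products bind VCAM-1, fibronectin or tenascin, had log2 changes of -0.27 ± 0.24 and 0.20 ± 0.10. Itga9 was higher in every MI-DAPA library (72.7 to 75.2 CPM against 55.5 to 72.3), with edgeR adjusted p = 0.195.

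Leukocyte integrins were low and were not called. Itgb2, the β2 subunit that pairs with αL, αM, αX and αD in myeloid cells and lymphocytes, had 9.40, 7.85 and 10 CPM in MI-NS and 5.96, 6.45 and 8.16 CPM in MI-DAPA. Only MI-DAPA replicate 3 reached the range of MI-NS. The log2 change of -0.41 ± 0.16 (edgeR adjusted p = 0.121) stood beside a median of -0.46 for the leukocyte and macrophage markers, of which Ptprc, the common leukocyte antigen CD45, was at -0.56 ± 0.19. Itgal and Itgax, the αL and αX subunits of lymphocytes and of dendritic cells and macrophages, were at -0.33 ± 0.33 and -0.51 ± 0.51, and Itgb7, the β7 subunit of gut-homing lymphocytes, at -0.38 ± 0.35. Itgad and Itgae had at most 2 and 9 counts in a library and Itgb2l had 0, so that differences were not detectable at this depth. Markers of T and NK cells, neutrophils and B cells were low, with summed levels of 1.59 to 4.33, 3.58 to 7.67 and 7.15 to 12.4 CPM over all libraries.

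Itgam, the αM subunit CD11b of monocytes, macrophages and neutrophils, was split between 2 identifiers in 1 library. ENSMUSG00000030786 (chromosome 7, 128062640 to 128118491) was given 222, 162 and 74 counts in MI-NS against 115, 144 and 163 in MI-DAPA. ENSMUSG00000108596 (chromosome 7, 128062683 to 128128160), which the files also name Itgam, held 0, 0 and 101 counts in MI-NS and none in MI-DAPA. In the GENCODE M21 annotation the identifiers share 3450 exonic bases, which are 68.7% of the first and 71.8% of the second. The first identifier alone had a log2 change of -0.02 ± 0.29. Added together, a choice made after seeing the data, they had 222, 162 and 175 counts against 115, 144 and 163, or 9.40 ± 1.29 and 7.39 ± 1.84 CPM (SD, n = 3), and a log2 change of -0.35 ± 0.19 (edgeR adjusted p = 0.256). The groups overlapped in both versions.

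Ratios of 2 members inside a library do not depend on scaling. They were taken on counts, not per kilobase, so their differences between groups can be read but their sign does not give the order of levels per length. Of 16 pairs compared, 9 were lower and 1 higher in MI-DAPA with no overlap. The pairs and their numerators were chosen with earlier results of these data known, so this count is not a result about the members. No share for pairs of other genes was taken. Pairs share members, so these are not independent, and no pair can pass: with 3 libraries a group an exact two-sided permutation test cannot go below p = 0.1, and the smallest value adjusted over the pairs was 0.16. The log2 ratio of Lama4 to Lama2 was -0.19, -0.01 and -0.12 in MI-NS against -0.84, -0.55 and -0.70 in MI-DAPA. That of Itga6 to Itga7 was -0.78, -0.59 and -0.73 against -1.66, -0.98 and -1.42, and that of Itga5 to Itga7 was -0.41, -0.23 and -0.33 against -1.06, -0.68 and -0.81. In each of these 3 pairs every MI-DAPA library lay below every MI-NS library.

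The ratio of Itgb5 to Itgb1 differed by -0.60 and that of Itgb3 to Itgb1 by -1.16 on the log2 scale. Without MI-NS replicate 3, whose Itgb1 was low, Itgb5 to Itgb1 differed by -0.38. Lamb1 to Lamb2 differed by -0.03, Lamc1 to Lamb1 by -0.15 and Itga7 to Itgb1 by 0.14, each with overlapping groups. Itgam to Itgb2 differed by 0.46 with the first Itgam identifier and by 0.05 with both added (exact two-sided permutation p = 0.4 and 0.6, 3 libraries a group).

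**Figure D4:**
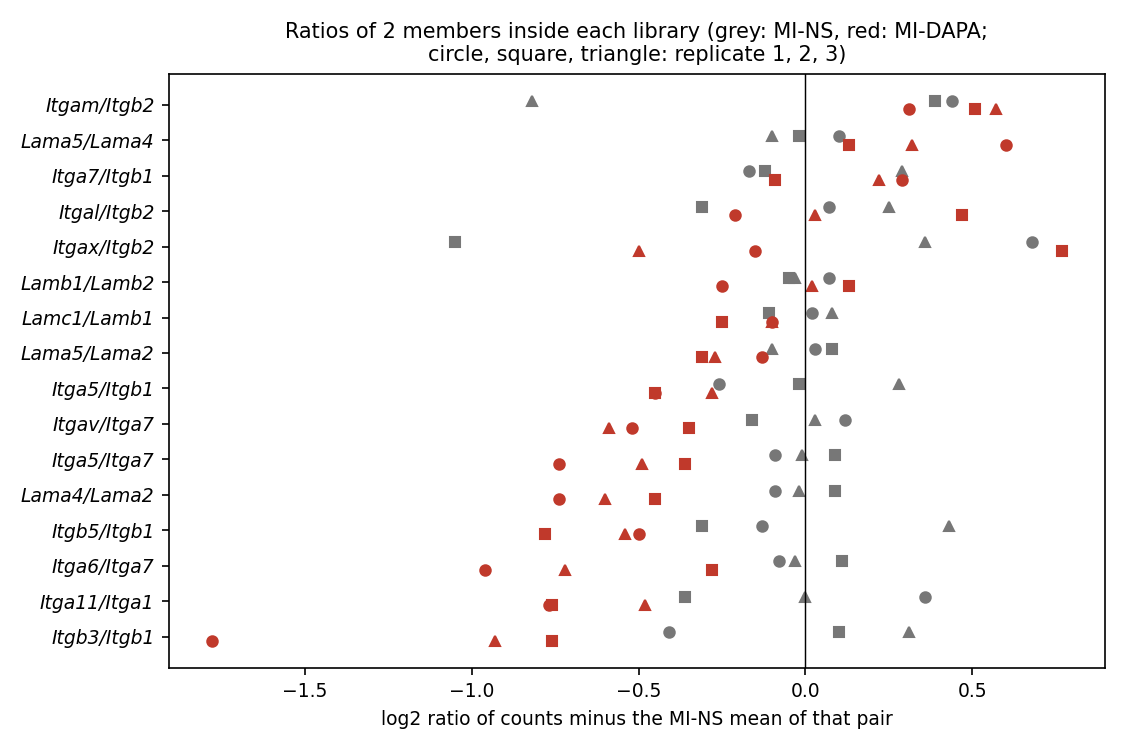
Log2 ratios of 16 pairs of members in each library, shown as the distance from the MI-NS mean of the pair, with MI-NS in grey and MI-DAPA in red. Lama4/Lama2, Itga6/Itga7 and Itga5/Itga7 show 3 red points to the left of 3 grey points, and the lone grey triangle at the left of Itgam/Itgb2 is the library with the split identifier.

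The partners of laminin in the basement membrane changed in part. Of 19 genes 6 fell and 0 rose, with a median log2 change of -0.16, where 7.83% of all tested genes fell and 8.69% rose. Col4a1 and Col4a2, the common collagen IV chains, fell by 0.59 ± 0.09 and 0.48 ± 0.08 on the log2 scale, Sparc, a collagen-binding matrix protein, by 0.86 ± 0.10, and Col15a1 and Col18a1, which encode collagens of vessel basement membranes, by 0.61 ± 0.08 and 0.71 ± 0.11. The linker genes that join laminin to collagen IV were not called: Nid1 (-0.11 ± 0.07), Nid2 (-0.18 ± 0.09) and the perlecan gene Hspg2 (0.00 ± 0.08). The edgeR adjusted p was 0.00322 to 0.00697 for the falls of Sparc and the named collagen genes. Agrn, which encodes agrin, fell as well, by 0.38 ± 0.07 (edgeR adjusted p = 0.00965). Ntn1, which encodes netrin-1, a laminin-related guidance protein, had 16, 12 and 81.5 CPM in MI-NS and 97.9, 89.7 and 93.4 CPM in MI-DAPA. MI-NS replicate 3 stood close to the MI-DAPA libraries and far above the others of its group, and the log2 change of 1.37 ± 0.60 was not called (edgeR adjusted p = 0.154).

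Non-integrin laminin receptors were higher in part. They comprise the dystroglycan complex of muscle, the enzymes that glycosylate it and the blood group receptor Bcam. Of 16 tested genes 7 rose and 0 fell, with a median of 0.33, where 8.69% of all tested genes rose and 7.83% fell. Sgcb and Sgca, sarcoglycans of the muscle membrane, rose by 0.39 ± 0.08 and 0.35 ± 0.09, Sspn, which encodes sarcospan, by 0.53 ± 0.09 and Bcam, a receptor of laminin α5, by 0.36 ± 0.07, with edgeR adjusted p of 0.00695 to 0.0299. Dag1, the laminin receptor dystroglycan itself, was at 0.86 ± 0.27 and Dmd, dystrophin, at 0.66 ± 0.20, and neither passed (adjusted p = 0.0606 and 0.0596, edgeR). Dag1 had 213, 160 and 83.8 CPM in MI-NS replicates 1 to 3 against 283, 275 and 272 CPM in MI-DAPA, so MI-NS replicate 3 was far the lowest. Utrn, utrophin, was at 0.06 ± 0.08 and Pomt1, an enzyme that glycosylates dystroglycan, at 0.05 ± 0.11. Scaled by library totals alone, 2 genes of this list rose. With all 6 libraries but replicate 2 of MI-NS the number was 4, and leaving out replicate 1 or 3 of MI-DAPA it was 3 or 4. Over all genes 1212 rose in the main test and 410 with library totals. Without MI-NS replicate 2 it was 861, and without MI-DAPA replicate 1 or 3 it was 541 or 683.

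On the inner side of the membrane, 11 of 40 tested adaptor and regulator genes fell and 2 rose, with a median of -0.23. Over all tested genes 7.83% fell and 8.69% rose. Actn1 and Flna, actin crosslinkers of adhesion sites, fell by 0.52 ± 0.08 each, Ilk, the integrin-linked kinase, by 0.33 ± 0.07, Cd9, a tetraspanin that associates with integrins, by 0.72 ± 0.14, and Fermt3, the kindlin of blood cells, by 0.55 ± 0.15. Tln2, the talin of adult heart muscle, rose by 0.46 ± 0.08 (edgeR adjusted p = 0.00901), while Tln1, the talin of other cells, was at -0.08 ± 0.07, Fermt2, the kindlin of muscle, at 0.11 ± 0.07 and Rsu1, a partner of the kinase Ilk, at -0.02 ± 0.17. With any 1 library left out 3 to 6 genes of this list fell, with the fewest, 3, when replicate 3 of MI-NS or replicate 1 of MI-DAPA was left out. Over all genes 457 to 844 fell with any 1 library left out, against 1092 with all libraries. The number was 542 without MI-NS replicate 3 and 457 without MI-DAPA replicate 1.

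Ligands of the other integrins were lower in part. Of 19 tested genes listed with the ligands of RGD, α4 and α9 integrins 9 fell and 1 rose, with a median of -0.62. Over all tested genes 7.83% fell and 8.69% rose. This list also holds genes that carry latent TGF-beta, and those called went both ways. Lrrc32 fell by 0.54 ± 0.12, and Ltbp1, the 1 gene of the list that rose, was at 0.36 ± 0.09 (edgeR adjusted p = 0.0205 and 0.0305). Fn1, fibronectin, fell by 1.31 ± 0.24, from 191 to 77.0 CPM, Tnc, tenascin-C, by 1.41 ± 0.21, Postn, periostin, by 1.49 ± 0.13, Tgfb3, a TGF-beta whose latent form αv integrins bind, by 1.03 ± 0.12 and Fbn1, fibrillin-1, by 0.91 ± 0.13, with edgeR adjusted p of 0.00165 to 0.0093. Vtn, vitronectin, was at -0.28 ± 0.09, Spp1, osteopontin, at -0.55 ± 0.39 and Cyr61, a matricellular protein, at -0.15 ± 0.14, and none of these passed. Of 8 tested genes listed with the ligands of leukocyte integrins, among them the Fc receptor gene Fcgr2b, 6 fell and 0 rose, with a median of -0.72. Icam1 and Icam2, endothelial ligands of β2 integrins, fell by 0.92 ± 0.14 and 0.58 ± 0.12, and Vcam1, the ligand of α4β1, by 0.91 ± 0.22 (edgeR adjusted p = 0.00577, 0.0142 and 0.0267). C3, the complement component whose fragment iC3b binds αMβ2, fell by 1.64 ± 0.29, Fcgr2b, an inhibitory Fc receptor, by 0.86 ± 0.15 and Jam3, a junction protein bound by αMβ2, by 0.59 ± 0.11, while Jam2 was at 0.06 ± 0.07. Whether these ligand lists and the integrins changed unequally was not tested. Without MI-NS replicate 3, 6 genes of the RGD, α4 and α9 list fell in place of 9. Of the leukocyte list 4 genes fell without that library and when replicate 1 or 3 of MI-DAPA was left out. Over all genes 542 fell without MI-NS replicate 3 in place of 1092, and 457 or 477 without MI-DAPA replicate 1 or 3.

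**Figure D5:**
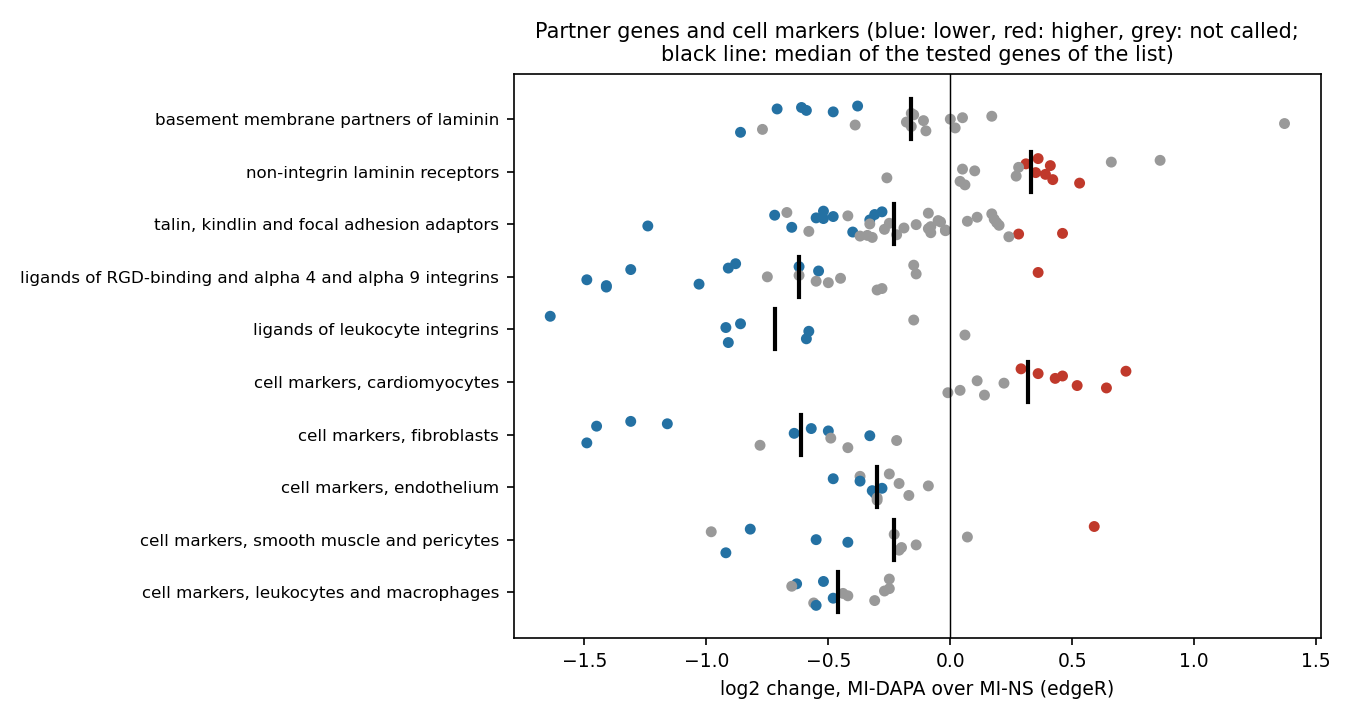
Log2 change, MI-DAPA over MI-NS, of the tested genes of 5 lists of integrin and laminin partners and of 5 cell marker lists, coloured by call, with the median of each list as a black line. Non-integrin laminin receptors (median 0.33) lie to the right like the cardiomyocyte markers (0.32), and the ligand lists (-0.62 and -0.72) lie to the left like the fibroblast markers (-0.61).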

How the data were processed

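The authors deposited raw read counts per gene, 1 table per library. Per the submitters' processing notes the build was mm10 and StringTie 1.3.0 and edgeR were used in roles not given in the sources used here, nor are the aligner, the counting program and the use of strand. No row other than genes was present. Groups came from the titles, which name no animal, so p-values measure the spread between libraries. Genes were kept by filterByExpr (minimum count 10, minimum total 15), scaled by TMM and tested with edgeR 4.0.16 (R 4.3.3) quasi-likelihood F tests on all 6 libraries, with Benjamini-Hochberg adjustment over 13940 genes. Standard errors are the log2 change divided by the square root of F. CPM use TMM-adjusted sizes, and RPKM divide them by exon length, the joined length of all exons of a gene in GENCODE M21. Its coordinates were identical to the files' for 32 of 39 members. Ratios were tested by exact permutation. Counts of every 2 libraries differed by more than counting error (chi-square over degrees of freedom at least 10.4). Members, lists, ratios and motifs were chosen with earlier results of these data known. The text names the members and, from each partner list, up to 4 called genes with the smallest p and the gene with the largest p, except 1 member and 1 partner gene that are counted but not reported here. Other genes named from these lists were chosen after their values were seen. Alternatives were other scalings, filters, DESeq2 1.42.0, a replicate block and left-out libraries.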

Additional observations from a re-analysis of the deposited data

How the results depend on the processing

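The 5 called members kept their calls with RLE or upper quartile scaling, without a filter on low counts, with at least 30 counts in 3 libraries, with DESeq2, with the replicate block and with the Itgam identifiers summed. The replicate block gave 4 integrins lower in place of 2, adding Itga6 and Itgb3, but same-numbered libraries deviated together with correlations of 0.06, 0.02 and 0.12, so the numbers were not taken to pair them. Library totals gave 0 integrins higher, with 410 genes higher overall in place of 1212. DESeq2 and the filter of 30 counts each gave 1 laminin higher, Lama2. Leaving out replicate 3 of both groups, which carry file names of a different form, gave 0 integrins lower, 0 higher and 0 laminins lower, with 24 called genes overall (16 lower and 8 higher). Other pairs were left out as a choice made after seeing the data. Without replicate 1 of both groups there were 0 integrins lower, 0 higher and 0 laminins lower, with 251 genes lower and 350 higher overall. Without replicate 2 of both groups there were 4 integrins lower, Itga11, Itga2, Itgb5 and Itgb8, with 762 genes lower and 791 higher overall. The call of Itgb4 was lost there (log2 change -0.83, edgeR adjusted p = 0.0731). With single libraries left out, integrins lower ranged from 0 to 4, integrins higher from 0 to 1, laminins lower from 1 to 2 and laminins higher from 0 to 1. Over all genes 457 to 844 were lower and 541 to 1087 higher with single libraries left out, against 1092 and 1212 with all. Fewer libraries are tested there, and the cause was not tested further.

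Some log2 changes of uncalled members changed sign, of which Itgax (-0.51) had the largest value with all libraries, and none was called under the alternative. Library totals gave -0.09 for Itga3, -0.09 for Itga1, -0.10 for Lama5, -0.03 for Lamb1 and 0.00 for Lamb2. Upper quartile scaling gave -0.01 for Itga1 and -0.01 for Lama5. The replicate block gave -0.01 for Itga1 and 0.01 for Itgam, and DESeq2 gave 0.00 for Itgam. Without replicate 1 of both groups Itgax was 0.06, Itgam 0.39, Lamc1 0.01, Itga8 0.14 and Lama5 0.00. Without replicate 2 of both groups Itgam was 0.07, Lamc3 -0.08 and Itga1 -0.20. With single libraries left out the log2 change ranged from -0.11 to 0.15 for Itga3, -0.27 to 0.25 for Itgam, -0.11 to 0.57 for Lamc3, -0.14 to 0.13 for Itga1, -0.30 to 0.08 for Itga8 and -0.06 to 0.08 for Lama5. The difference in ratio ranged from -0.11 to 0.08 for Lamb1/Lamb2, -0.10 to 0.24 for Itgal/Itgb2 and -0.48 to 0.39 for Itgax/Itgb2. Replicate 3 left out of both groups also gave 0 called genes in the receptor, adaptor and ligand lists.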
